A study of Mus musculus with 103 samples.

Results

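RNA sequencing of mouse muscle stem cells was used to follow 43 genes of the Wnt pathway from young to old age. The genes were chosen by symbol from a list of ligands, receptors, inhibitors, cytoplasmic components and transcription factors. This choice was made with earlier results of these data known, so counts set beside all genes are a description only. All 43 were found among the 43283 genes with an Ensembl ID in the bulk table and the 43282 in the table of single-cell wells. Every mouse was an untreated C57BL/6 animal. The bulk libraries came from 3 young, 2 middle-aged (12 and 13 months) and 3 old (24 months) mice, and the labels of the young libraries give 3 months in the age field and 2 months in the description. Each bulk library was made from 5000 to 10000 cells. The single-cell table has 64 wells from a young mouse (3 months) and 31 from an old one (24 months), 1 animal each. The source is labelled as muscle stem cells, and as myoblasts, their dividing progeny, in the design text. A culture medium with fibroblast growth factor 2 is described, but not the point at which RNA was isolated.

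Wnt ligands are lipid-modified secreted proteins that bind Frizzled receptors together with the co-receptors Lrp5 and Lrp6. In the canonical branch this halts the destruction complex of Axin, Apc and Gsk3b, so that beta-catenin (Ctnnb1) accumulates, enters the nucleus and acts with TCF/LEF factors on target genes. Branches without beta-catenin run through Dishevelled and Vangl2 to cell polarity. In muscle stem cells, Wnt7a acting through Fzd7 and Vangl2 is known to drive symmetric expansion, Wnt4 has been tied to quiescence, and canonical signalling to differentiation and, in old muscle, to a fibrogenic state.

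The values are TPM, a share of each library's transcripts that is scaled for gene length and carries no read depth. Many genes were at 0 in one library and at clear levels in another of the same age, so a 0 does not show absence. Between 12849 and 17114 genes reached 1 TPM per bulk library, and mitochondrially encoded RNA took 32.67 to 46.5% of TPM. The 14 muscle stem cell markers summed to 2493.15 to 2857.95 TPM in the young, 1916.14 and 2553.32 TPM in the middle-aged and 1584.08 to 2408.54 TPM in the old libraries. No old sum reached the lowest young one, and 10 of the 14 differences were below 0. The separation of the sums rested on Chodl, with 757.8, 818.97 and 1142.29 TPM in the young and 350.57, 627.66 and 496.21 TPM in the old libraries. Without Chodl the summed markers overlapped between young and old. In 2 of the 14 genes all old libraries lay below all young ones, and in 1 above. The same held for 4.16% and 5.85% of all genes. The 15 fibroblast markers summed to 1164.5 to 1588.33 TPM in young, 1587.48 and 1272.28 TPM in middle-aged and 1527.54 to 2168.71 TPM in old libraries. Of the 12 tested, 4 were higher in all old libraries than in any young one (5.85% of all genes). Col3a1 was the 1 that was lower (4.16% of all genes), with 225.67, 257.45 and 285.39 TPM in the young and 96.45, 141.76 and 214.84 TPM in the old. The 9 endothelial markers summed to 33.01 to 98.62 TPM over all libraries, with Egfl7 and Cldn5 at 0 in all 8, and the 8 macrophage markers to 26.83 to 107.77 TPM, with Tyrobp and C1qa at 0 in all 8. Markers of Schwann cells, the glia that wrap nerve fibres, differed with age. Their summed level was 84.73, 174.98 and 151.87 TPM in the young, 183.76 and 402.79 TPM in the middle-aged and 480.69, 1459.71 and 443.96 TPM in the old libraries. All 3 old libraries thus held more Schwann cell marker RNA than any younger one, and old library 2 held the most. The part of these markers in the differences given below was not tested. In bulk RNA, a gene carried by fewer cells and a gene with less RNA per cell cannot be told apart.

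The pathway was expressed at every step, but with a steep order of levels. Of the 43 genes, 35 had a mean of at least 1 TPM over the 8 libraries, 28 of at least 5 TPM and 10 of at least 20 TPM, and 24 were above 0 in every library. The 10 highest were Ctnnb1, Tcf7l2, Lrp6, Apc, Gsk3b, Znrf3, Fzd4, Wls, Fzd7 and Lgr4. They hold at least 1 gene of each step except the ligands, the secreted inhibitors and the Dishevelled proteins. Among all genes, Tcf7l2 ranked 1255 by mean level and Lgr4 ranked 3919. The 8 genes under 1 TPM were the ligands Wnt2, Wnt7a and Wnt7b, the receptors Fzd6, Fzd9 and Fzd10, and the inhibitors Sfrp2 and Dkk2. Their means lay between 0.16 and 0.80 TPM. Of the 35 genes with 1 TPM or more, 11 (31.4%) had a 0 in some library, against 66.1% of all genes of that level, though the Wnt genes are not matched to the others in level. The median spread between libraries of the same age, as an SD of log2(TPM + 1), was 0.72 for the 35 Wnt genes and 1.16 for all genes tested.

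**Figure D1:**
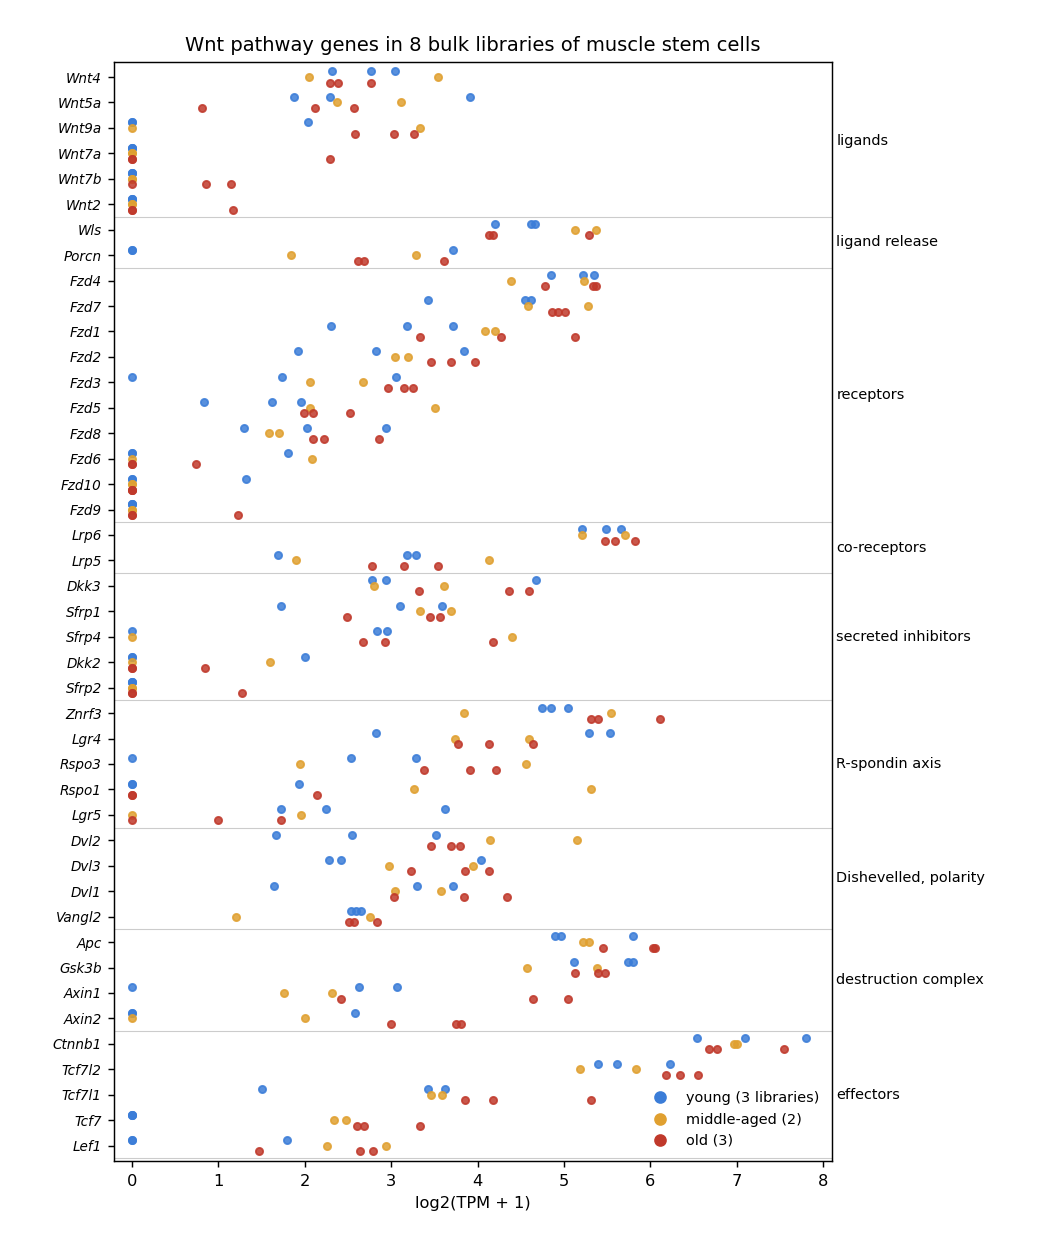
Levels of the 43 Wnt pathway genes on a log2(TPM + 1) axis, 1 point per bulk library, with young libraries in blue, middle-aged in orange and old in red, and the genes grouped by role. Ctnnb1 and Tcf7l2 lie furthest to the right, and points on the left edge are libraries that list a gene at 0.

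Old and young libraries were compared with limma on log2(TPM + 1) over the 22492 genes that averaged 1 TPM or more. No Wnt gene passed an adjusted p of 0.05, and neither did any other gene (0% of those tested). The lowest adjusted p of a Wnt gene was 0.634, for Tcf7, which was listed at 0 in every young library. On simulated data of this comparison the test called 0.67% of genes changed by 2 log2 units and 50.5% of those changed by 3. Changes below that size were thus mostly not called. The changed genes were drawn from the better expressed of all genes, each with its own spread. The Wnt genes spread less (median SD 0.72 against 1.16), and some lie at lower levels, so the rate for them may differ. By unadjusted p under 0.05, 3 of the 35 Wnt genes were higher in old libraries (Tcf7, Axin2 and Tcf7l1) and 0 were lower. Across all genes, 3.72% were higher and 2.17% lower by that measure. For 8 Wnt genes all old libraries exceeded all young ones, and for 0 all lay below. The same held for 5.85% and 4.16% of all genes. The 8 were Tcf7, Tcf7l1, Axin2, Wnt9a, Rspo3, Znrf3, Fzd5 and Fzd7. Tcf7 met the filter of 1 TPM only through the middle-aged and old libraries, so its place in both counts is not read as support. Of the 35 differences, 29 were above 0 and 6 below, with a median of 0.73 log2 units. Among all genes, 54.2% were above 0 and the median was 0.

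**Figure D2:**
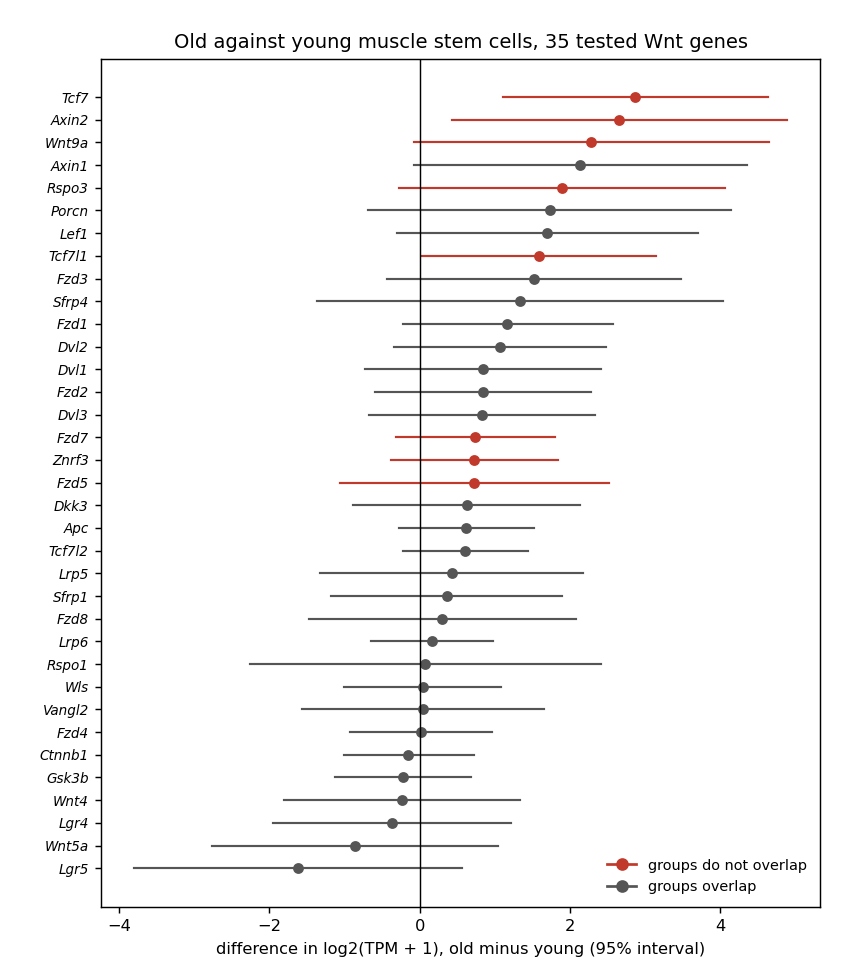
Difference in log2(TPM + 1) between old and young bulk libraries for the 35 tested Wnt genes, with the 95% interval of the limma fit and a vertical line at 0. Red marks the 8 genes whose old libraries all lie above the young ones, and only the intervals of Tcf7, Axin2 and Tcf7l1 lie wholly above 0. Tcf7 is listed at 0 in every young library and entered the fit only through the other ages.

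Among the ligands, Wnt4 and Wnt5a were found in every library. Wnt4 stood at 5.79, 7.28 and 3.97 TPM in the young, 10.68 and 3.16 TPM in the middle-aged and 5.80, 3.90 and 4.23 TPM in the old libraries. Wnt5a, the classic ligand of the branches without beta-catenin, had 2.68, 14.02 and 3.89 TPM in the young, 4.19 and 7.65 TPM in the middle-aged and 3.35, 0.76 and 4.92 TPM in the old ones. For both genes the ages overlapped. Wnt9a, which is known from joint and skeletal development, lay higher in the old libraries. It was listed at 0, 3.10 and 0 TPM in the young, 9.10 and 0 TPM in the middle-aged and 8.64, 4.98 and 7.22 TPM in the old libraries. All 3 old libraries exceeded the highest young one, and the difference between the group means was 2.28 log2 units (SE 1.07, 95% interval -0.08 to 4.65, limma p = 0.0569, adjusted p = 0.833; 4.44 or 1.01 with a pseudocount of 0.1 or 5). Wnt7a was found in 1 library, old library 1 (3.89 TPM), Wnt2 in old library 2 alone (1.25 TPM) and Wnt7b in old libraries 1 and 2 (1.21 and 0.82 TPM). The summed level of the 6 ligands was 13.58 ± 9.38 TPM in young (mean ± SD, n = 3), 17.39 ± 9.31 TPM in middle-aged (n = 2) and 16.99 ± 5.62 TPM in old libraries (n = 3).

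Wls, the carrier that takes Wnt proteins to the cell surface, was far more abundant than any ligand. It had 17.39, 23.50 and 24.38 TPM in the young, 33.94 and 40.46 TPM in the middle-aged and 16.60, 38.18 and 17.05 TPM in the old libraries. Both middle-aged libraries lay above all young ones (0.76 log2 units, SE 0.52, limma p = 0.178, adjusted p = 0.648), and the old libraries spanned both ranges. Porcn, the enzyme that attaches the lipid to Wnt proteins, was listed at 12.12, 0 and 0 TPM in the young, 8.77 and 2.59 TPM in the middle-aged and 5.44, 11.21 and 5.12 TPM in the old libraries. The young libraries covered the whole range of the others.

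All 10 Frizzled receptors were found in at least 1 library, and Fzd4 and Fzd7 led. Fzd4, also the receptor for norrin, had 39.76, 27.78 and 36.33 TPM in the young, 36.68 and 19.88 TPM in the middle-aged and 26.54, 39.43 and 40.38 TPM in the old libraries. It was the highest Frizzled in 6 of 8 libraries, and Fzd7 in the other 2. Fzd7, the receptor of Wnt7a in these cells, stood at 23.48, 22.39 and 9.76 TPM in the young, 22.99 and 37.86 TPM in the middle-aged and 29.40, 28.17 and 31.21 TPM in the old libraries. All old libraries exceeded the young ones, by 0.74 log2 units (1.67-fold on the log2(TPM + 1) scale, SE 0.48, 95% interval -0.32 to 1.80, limma p = 0.154, adjusted p = 0.839). Young library 3 was the low one, and without it the difference was 0.35. Fzd1 had 8.09, 12.13 and 3.96 TPM in the young, 16.01 and 17.35 TPM in the middle-aged and 18.34, 9.09 and 33.82 TPM in the old libraries. Both middle-aged libraries exceeded the young ones (1.07 log2 units, SE 0.70, limma p = 0.156, adjusted p = 0.628; 0.69 without young library 3), while old library 2 lay within the young range.

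The lower Frizzled receptors varied more between libraries. Fzd2 had 13.34, 2.80 and 6.09 TPM in the young, 8.20 and 7.28 TPM in the middle-aged and 10.02, 11.98 and 14.63 TPM in the old libraries. Fzd3, which acts in axon guidance and polarity, had 2.34, 7.35 and 0 TPM, then 5.39 and 3.19 TPM, then 6.82, 7.87 and 8.54 TPM in the same order. In both, the old libraries lay above the middle-aged ones but overlapped the young. Fzd5 stood at 2.07, 2.90 and 0.79 TPM in the young, 3.18 and 10.35 TPM in the middle-aged and 4.74, 2.97 and 3.28 TPM in the old libraries. The old libraries of Fzd5 lay just above the young ones (0.73 log2 units, SE 0.81, 95% interval -1.06 to 2.52, limma p = 0.389, adjusted p = 0.876), with 0.41 when young library 3 was left out and 0.33 with a pseudocount of 5. A predicted gene on the other strand, Gm38058, shares 1233 exonic bases with Fzd5. It was at 0 in all young and middle-aged libraries and at 1.64, 1.45 and 2.16 TPM in the old ones, and since strandedness is not given in the sources used here, reads of this pair cannot be told apart. Fzd8 had 1.47, 3.07 and 6.70 TPM in the young, 2.26 and 2.00 TPM in the middle-aged and 3.67, 3.29 and 6.26 TPM in the old libraries. Fzd6 was found in 3 libraries, Fzd9 only in old library 3 and Fzd10 only in young library 1.

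The summed level of all 10 Frizzled genes was 92.06, 80.92 and 63.63 TPM in the young, 94.71 and 101.16 TPM in the middle-aged and 99.53, 103.47 and 139.46 TPM in the old libraries. The young sums lay below all others. This sum over related receptors is a description with no test. Fzd4 took 19.7 to 57.1% of it and Fzd7 15.3 to 37.4%.

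**Figure D3:**
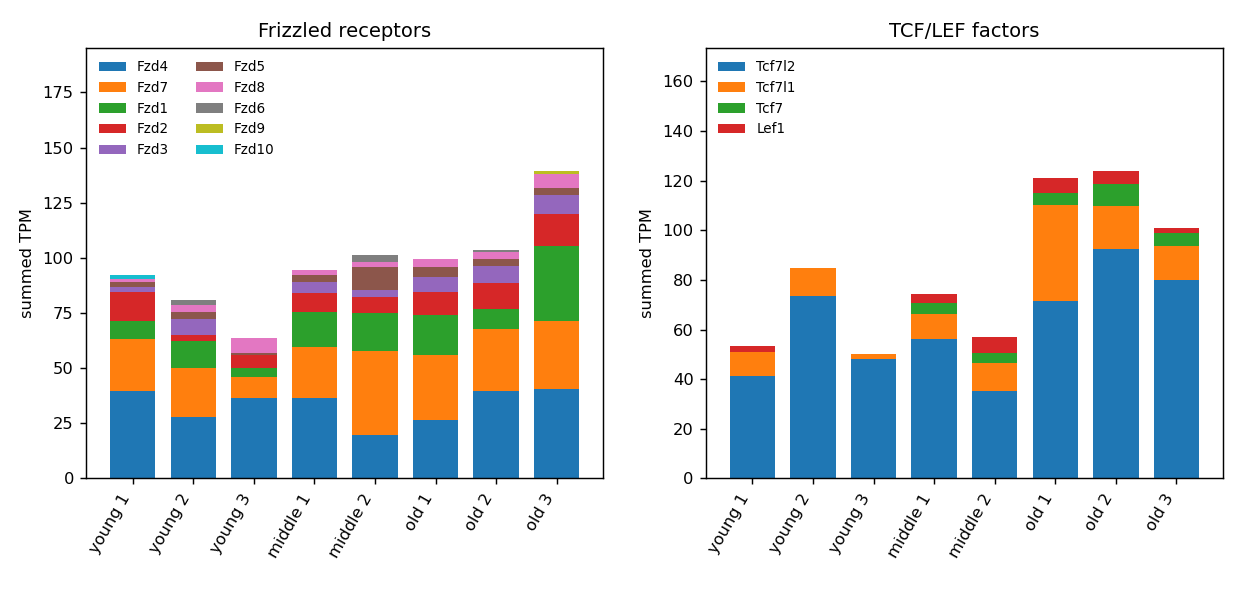
Summed TPM of the 10 Frizzled receptor genes (left) and the 4 TCF/LEF factor genes (right) in each bulk library, with each colour 1 gene and linear axes from 0. The TCF/LEF bars of the 3 old libraries, 100.71 to 123.93 TPM, stand above the other 5, and Tcf7l2 is the largest segment throughout.

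The start regions of the receptor genes show the kind of promoter these genes have. RefSeq entries for GRCm38.p6, the assembly of the mm10 build, were matched for 26 of the 43 genes, with 32 transcription starts. The 250 bases before each start were searched on both strands for the TCF/LEF core, which is the word CTTTGAA or the word CTTTGAT or the word CTTTGTA or the word CTTTGTT. A word was present at 3 of the 32 starts, and at 14.8% of all 32851 starts in the table. Those were the start of Fzd7, 1 of 4 starts of Lef1 and 1 of a pair of Tcf7l2 starts. The Fzd7 window (chr1:59481897-59482146, plus strand) is shown because Fzd7 is the single Frizzled gene with such a word in its matched window. The capitals mark the word, read from the opposite strand, with its first base at position -130 from the RefSeq start:
Fzd7: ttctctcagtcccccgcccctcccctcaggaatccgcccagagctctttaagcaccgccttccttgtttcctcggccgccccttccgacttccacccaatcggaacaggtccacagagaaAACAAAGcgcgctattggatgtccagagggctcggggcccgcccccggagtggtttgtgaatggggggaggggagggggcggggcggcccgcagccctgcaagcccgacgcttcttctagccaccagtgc
The windows of most Wnt genes were rich in the dinucleotide CG, as in CpG island promoters. The median was 20.5 CG per window for the 32 starts and 6 for all starts, and 19 of the 32 had at least 17, the count of Fzd7, against 23.5% of all. The Fzd5 window (chr1:64737752-64738000, minus strand) is printed up to the base before the annotated Fzd5 gene, which leaves out 1 of the 250 searched bases, and these 249 hold 31 CG, marked by capitals. It is shown because a second gene is annotated across Fzd5 on the opposite strand:
Fzd5: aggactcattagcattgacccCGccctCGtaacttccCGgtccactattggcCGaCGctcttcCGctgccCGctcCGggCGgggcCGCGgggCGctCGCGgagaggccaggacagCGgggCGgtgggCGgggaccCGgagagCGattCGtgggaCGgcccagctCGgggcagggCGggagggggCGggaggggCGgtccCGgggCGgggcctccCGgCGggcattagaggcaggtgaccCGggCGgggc
A matched word is a description of the letters in a window, and methylation or factor binding was not measured here.

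The co-receptor Lrp6 kept within 35.88 to 55.73 TPM at all ages. It had 49.63, 36.12 and 43.91 TPM in the young, 51.36 and 35.88 TPM in the middle-aged and 47.04, 43.38 and 55.73 TPM in the old libraries. Lrp5 was lower, with 8.78, 2.24 and 8.08 TPM in the young, 2.73 and 16.55 TPM in the middle-aged and 5.84, 7.88 and 10.61 TPM in the old libraries. Neither separated the ages.

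The secreted inhibitors were led by Dkk3 and Sfrp1. Dkk3, a Dickkopf relative whose effect on Wnt signalling varies with the setting, had 5.85, 24.51 and 6.68 TPM in the young, 11.24 and 5.98 TPM in the middle-aged and 19.52, 9.03 and 23.17 TPM in the old libraries. Sfrp1, a soluble Frizzled-like protein that binds Wnts, had 11.08, 2.32 and 7.60 TPM, then 11.93 and 9.07 TPM, then 4.62, 9.96 and 10.80 TPM in the same order. Its relative Sfrp4 was listed at 0, 6.15 and 6.73 TPM in the young, 0 and 20.08 TPM in the middle-aged and 17.18, 6.60 and 5.39 TPM in the old libraries. All 3 genes overlapped between the ages. Sfrp2 was found only in old library 2 (1.43 TPM), and Dkk2 was found in 3 libraries with a mean of 0.73 TPM. The 5 inhibitors summed to 24.64 ± 8.04 TPM in young, 30.16 ± 7.02 TPM in middle-aged and 36.17 ± 7.94 TPM in old libraries.

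R-spondins potentiate Wnt signalling by binding Lgr receptors and removing the ubiquitin ligase Znrf3, which otherwise clears Frizzled proteins from the surface. Znrf3 was the highest gene of this axis. It had 27.79, 31.93 and 25.75 TPM in the young, 45.52 and 13.35 TPM in the middle-aged and 38.66, 67.92 and 41.06 TPM in the old libraries. Every old library exceeded every young one (0.73 log2 units, SE 0.50, 95% interval -0.38 to 1.84, limma p = 0.176, adjusted p = 0.839; 0.48 without old library 2), and the middle-aged pair lay on either side of the young range. Rspo3 was listed at 0, 8.78 and 4.79 TPM in the young, 22.56 and 2.86 TPM in the middle-aged and 17.49, 9.41 and 14.07 TPM in the old libraries. Here too the old libraries lay above the young (1.89 log2 units, SE 0.98, 95% interval -0.27 to 4.06, limma p = 0.0803, adjusted p = 0.839), with 0.92 when young library 1 was left out, and 3.03 or 1.07 with a pseudocount of 0.1 or 5. Rspo3 shares 404 exonic bases with the antisense gene Gm48159, which has no listed value, so their reads cannot be told apart. Rspo1 followed another pattern. It was listed at 2.81, 0 and 0 TPM in the young, 8.62 and 38.88 TPM in the middle-aged and 0, 0 and 3.43 TPM in the old libraries. Both middle-aged libraries stood above every young and every old one.

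The receptor Lgr4 was variable within the young group, with 45.37, 6.08 and 38.08 TPM, and had 12.33 and 23.08 TPM in the middle-aged and 12.72, 23.95 and 16.48 TPM in the old libraries. Lgr5, a stem cell marker of gut and skin, was low, with 11.28, 3.74 and 2.30 TPM in the young, 2.89 and 0 TPM in the middle-aged and 0, 1.00 and 2.31 TPM in the old libraries. Both overlapped between young and old, and Lgr5 had the lowest of the 35 differences, -1.62 log2 units.

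The Dishevelled proteins pass the signal from Frizzled into the cell. Dvl1 had 8.88, 2.12 and 12.16 TPM in the young, 10.91 and 7.26 TPM in the middle-aged and 13.33, 19.20 and 7.18 TPM in the old libraries. Dvl3 had 4.35, 15.46 and 3.85 TPM, then 14.44 and 6.90 TPM, then 8.37, 16.57 and 13.51 TPM in the same order. These 2 overlapped between the ages. Dvl2 stood at 4.84, 10.47 and 2.19 TPM in the young, 34.38 and 16.75 TPM in the middle-aged and 11.98, 10.03 and 12.86 TPM in the old libraries. Its middle-aged pair lay above all other libraries. Dvl2 shares 1240 exonic bases with its neighbours, mostly with the metabolic gene Acadvl on the opposite strand (mean 52.39 TPM), so part of the reads of these genes could be exchanged. Vangl2, a membrane protein of planar cell polarity, had 5.05, 5.30 and 4.81 TPM in the young, 1.30 and 5.74 TPM in the middle-aged and 4.92, 4.73 and 6.15 TPM in the old libraries, and the young and old ranges overlapped.

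In the destruction complex, the scaffold Apc and the kinase Gsk3b were abundant at every age. Apc had 54.54, 28.89 and 30.36 TPM in the young, 38.03 and 36.22 TPM in the middle-aged and 42.63, 65.57 and 64.16 TPM in the old libraries. Gsk3b, which marks beta-catenin for degradation, had 54.85, 52.26 and 33.64 TPM, then 22.88 and 40.73 TPM, then 43.32, 33.96 and 41.12 TPM in the same order. Young and old overlapped for both. The limiting scaffold Axin1 was listed at 5.17, 0 and 7.38 TPM in the young, 3.97 and 2.39 TPM in the middle-aged and 32.05, 4.35 and 24.05 TPM in the old libraries. Old libraries 1 and 3 stood above all others, while old library 2 lay within the young range.

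Axin2 is both a member of the destruction complex and a direct target of beta-catenin, widely used as a readout of canonical signalling. It lies at chr11:108920349-108950783 on the plus strand. The 250 bases before its RefSeq start (chr11:108920099-108920348, GRCm38.p6) hold 24 CG, in capitals, and none of the TCF/LEF words searched. The window is shown because Axin2 is a known target that was higher in all old libraries than in any other:
Axin2: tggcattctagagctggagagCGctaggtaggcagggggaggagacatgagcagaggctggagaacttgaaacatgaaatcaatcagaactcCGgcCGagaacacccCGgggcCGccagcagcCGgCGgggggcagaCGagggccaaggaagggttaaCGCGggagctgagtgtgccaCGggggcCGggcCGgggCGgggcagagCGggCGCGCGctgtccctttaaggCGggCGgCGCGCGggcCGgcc
Axin2 had 4.99, 0 and 0 TPM in the young, 3.01 and 0 TPM in the middle-aged and 12.45, 6.98 and 13.05 TPM in the old libraries. Every old library lay above all 5 others, and 3 of those 5 listed the gene at 0. Old minus young was 2.66 log2 units (6.31-fold on the log2(TPM + 1) scale, SE 1.01, 95% interval 0.43 to 4.89, limma p = 0.0237, adjusted p = 0.808). With a pseudocount of 0.1 or 5 in place of 1 the difference was 4.83 or 1.31, since levels near 0 depend on it. The antisense gene that overlaps Axin2, Gm11670, was at 0 in every library.

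Ctnnb1 was the most abundant gene of the pathway. It had 92.02, 135.11 and 222.56 TPM in the young, 124.45 and 127.02 TPM in the middle-aged and 108.03, 185.94 and 101.65 TPM in the old libraries. The ages overlapped fully, and the difference of old minus young was -0.15 log2 units (SE 0.39, 95% interval -1.01 to 0.72, limma p = 0.718, adjusted p = 0.984). Its sign turned when young library 3 (0.18) or old library 3 (0.01) was left out. Beta-catenin is regulated mainly through protein stability, which RNA levels do not show.

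Of the TCF/LEF factors, which carry beta-catenin to target genes, Tcf7l2 was the highest in 8 of 8 libraries. It had 41.11, 73.57 and 48.11 TPM in the young, 56.13 and 35.30 TPM in the middle-aged and 71.33, 92.51 and 80.09 TPM in the old libraries. Old libraries lay above the middle-aged ones, and young library 2 fell inside the old range. Tcf7l1, which acts mostly as a repressor, had 9.74, 11.36 and 1.85 TPM in the young, 9.98 and 11.07 TPM in the middle-aged and 38.71, 17.11 and 13.42 TPM in the old libraries. All 3 old libraries exceeded all 5 others. The difference to young was 1.59 log2 units (3.02-fold on that scale, SE 0.70, 95% interval 0.03 to 3.15, limma p = 0.0461, adjusted p = 0.833), and 0.92 when young library 3 was left out.

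Tcf7, which encodes TCF1, was listed at 0 in all 3 young libraries and was found in all others. Its level was 4.56 and 4.05 TPM in the middle-aged and 5.07, 9.09 and 5.42 TPM in the old libraries. The limma fit gave the lowest p of the set for old against young (p = 0.00445, adjusted p = 0.634, SE 0.80 on the log2 scale). Tcf7 met the filter of 1 TPM, and so entered the fit, only through the middle-aged and old libraries. Its young values also have no spread, so this p is not read as support for a difference. The fitted difference was 2.87 log2 units with a pseudocount of 1, 6.00 with 0.1 and 1.19 with 5, and no fold is given against a group listed at 0. Lef1 was listed at 2.47, 0 and 0 TPM in the young, 3.78 and 6.71 TPM in the middle-aged and 5.93, 5.22 and 1.78 TPM in the old libraries. Old library 3 lay below young library 1, so the ages overlapped (1.70 log2 units, SE 0.91, 95% interval -0.30 to 3.71, limma p = 0.0884, adjusted p = 0.839), and the difference was 3.73 or 0.67 with a pseudocount of 0.1 or 5. The antisense gene Gm43352 shares 1208 exonic bases with Lef1 and has no listed value. As strandedness is not given, reads of this pair cannot be told apart.

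As a family, the 4 TCF/LEF genes summed to 53.32, 84.93 and 49.96 TPM in the young, 74.45 and 57.13 TPM in the middle-aged and 121.04, 123.93 and 100.71 TPM in the old libraries. The old sums lay above all others. Tcf7l2 made up 58.9 to 96.3% of the sum. These sums are given with no test.

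**Figure D4:**
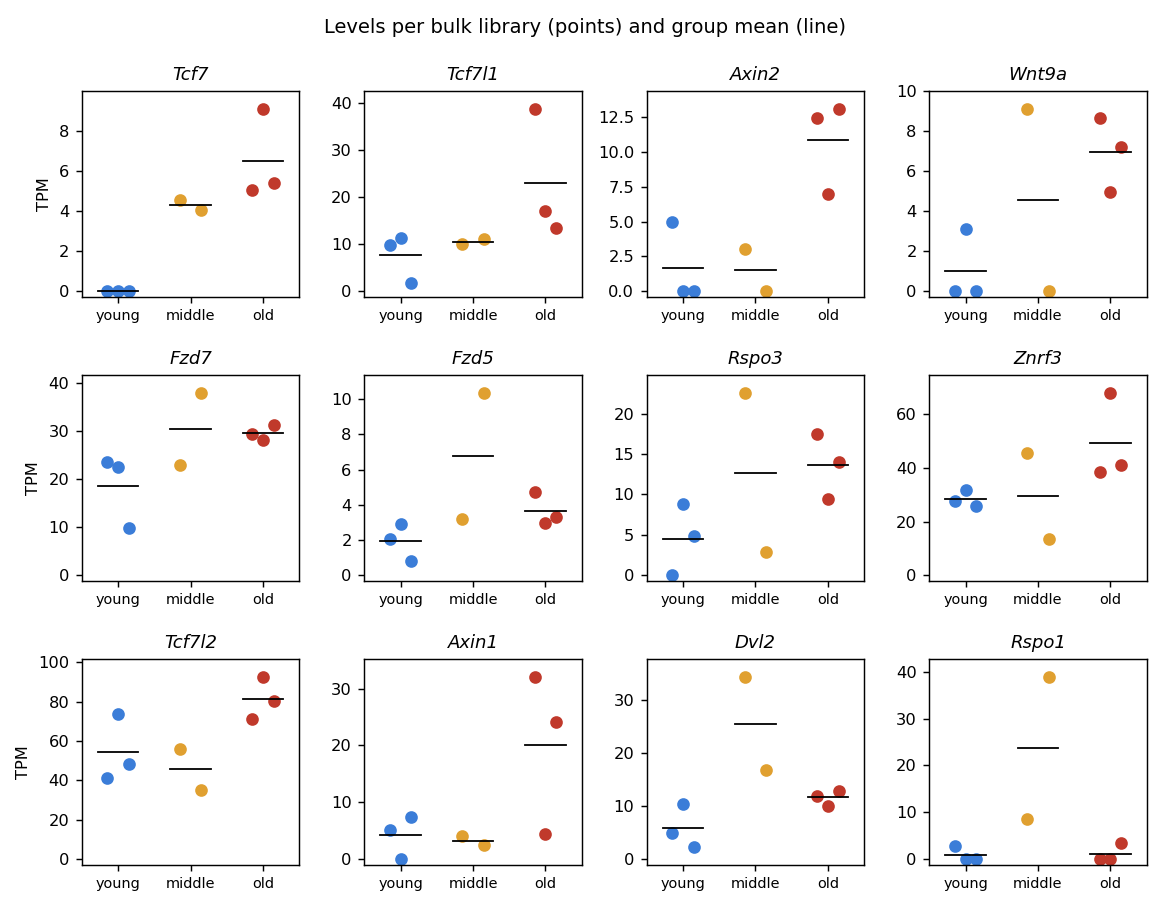
TPM of 12 Wnt pathway genes in each bulk library (points), grouped by age, with a line at the mean of each age; each panel has its own linear axis from 0. Old points lie above young points for Tcf7, Tcf7l1, Axin2, Wnt9a, Fzd7, Fzd5, Rspo3 and Znrf3, and Rspo1 and Dvl2 peak in the middle-aged pair.

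Middle-aged libraries were compared with young ones in the same fit, with only 2 middle-aged libraries. No Wnt gene passed the adjusted threshold. Over all genes, 1 gene (0.00445%) did so, Mapkapk3, a stress kinase outside the Wnt lists that is named here because it was the only one. By unadjusted p under 0.05, 3 Wnt genes were higher and 0 lower, against 5.50% and 2.28% of all genes. In 7 Wnt genes both middle-aged libraries lay above all young ones, and in 0 below, against 12.6% and 5.37% of all genes. Of the 35 differences 25 were above 0, with a median of 0.27, beside 55.2% and a median of 0.18 for all genes. Rspo1 had the largest of these differences, 3.65 log2 units (SE 1.18, 95% interval 1.04 to 6.26, limma p = 0.0108, adjusted p = 0.428). With a pseudocount of 0.1 or 5 it was 5.91 or 2.08. Rspo1 met the filter of 1 TPM, and so entered the fit, only through the middle-aged libraries. Its p and its place in these counts are therefore not read as support for a difference. Dvl2 followed with p = 0.015 (2.07 log2 units, SE 0.71, limma adjusted p = 0.464). Tcf7 was again at 0 in the young group (limma p = 0.0215, adjusted p = 0.518). It entered the fit only through the other ages, so its p and its place in these counts are not read as support. Lef1 was higher in both middle-aged libraries than in any young one (2.00 log2 units, SE 1.01, limma p = 0.0750, adjusted p = 0.626; 4.12 or 0.83 with a pseudocount of 0.1 or 5). The same held for Fzd5 (1.31, SE 0.91, limma p = 0.177, adjusted p = 0.647), with 2.03 or 0.59 when middle-aged library 1 or 2 was left out. Fzd1 and Wls, with the values above, complete the 7. In both middle-aged libraries the summed markers of tendon cells, macrophages, endothelial cells, lymphocytes and Schwann cells lay above those of every young library. Those of tendon cells (8 genes) summed to 32.16, 15.24 and 22.62 TPM in the young, 120.02 and 144.94 TPM in the middle-aged and 93.17, 100.59 and 70.61 TPM in the old libraries. Those of macrophages (8 genes) summed to 26.83 to 47.05 TPM in the young, 107.77 and 77.97 TPM in the middle-aged and 28.37 to 59.62 TPM in the old ones. Lyz2 alone held 78.65 and 58.24 TPM of the middle-aged sums, and without it the young and middle-aged sums overlapped. Ptprc went the other way, with 5.38, 10.89 and 25.62 TPM in the young and 4.79 and 4.25 TPM in the middle-aged libraries. The endothelial sum was 98.62 and 63.37 TPM in the middle-aged against at most 48.37 TPM in the young, and the lymphocyte sum (6 genes) was 63.18 and 33.68 TPM against at most 26.99 TPM in the young and 12.09 TPM in the old libraries. Their part in the values of Rspo1, Dvl2 and the others was not tested.

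Old libraries were also set against the middle-aged ones, which the comparison with young shares, so the 3 sets of differences are not independent. No gene passed the adjusted threshold (0% of all genes tested with limma). By unadjusted p under 0.05, Axin2 was higher and Rspo1 lower in old libraries, against 2.34% and 3.85% of all genes. The difference of Axin2 was 2.52 log2 units (SE 1.13, limma p = 0.0480, adjusted p = 0.724), with 1.52 when middle-aged library 2 was left out and 4.24 or 1.30 with a pseudocount of 0.1 or 5. That of Rspo1 was -3.58 (SE 1.18, limma p = 0.0120, adjusted p = 0.680), with -5.81 or -2.04 under the same pseudocounts. Since Rspo1 entered the fit only through the middle-aged libraries, its p and its place in these counts are not read as support. In 9 Wnt genes the old libraries lay above both middle-aged ones, against 7.15% of all genes. Axin1 (2.00 log2 units), Tcf7l1 (0.92), Tcf7l2 (0.85), Fzd3 (0.75), Fzd8 (0.75), Apc (0.59), Fzd2 (0.58) and Tcf7 (0.47) were among them beside Axin2, with limma adjusted p of 0.724 to 0.920. Leaving out 1 library brought Tcf7l1 to 0.49 (old library 1), Tcf7 to 0.24 (old library 2), and Tcf7l2 and Fzd3 to 0.52 and 0.45 (middle-aged library 2). In 2 genes, Rspo1 and Dvl2 (-1.0 log2 units, -0.50 without middle-aged library 1, limma adjusted p = 0.773), the old libraries lay below, against 12.8% of all genes. Of the 35 differences 26 were above 0, with a median of 0.35, beside 42.4% and a median of -0.09 for all genes.

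Pathway genes outside the 43 were followed through 7 further lists of ligands, receptors, inhibitors, polarity, cytoplasmic and nuclear components and common targets. Of these, 66 genes averaged 1 TPM or more. In old against young, 0 of 66 passed the adjusted threshold of limma, 4 were higher and 1 lower by unadjusted p under 0.05 (3.72% and 2.17% of all genes), and the median difference was 0.18, beside 0 for all genes. All old libraries exceeded all young ones in 10 of the 66 and lay below them in 2, against 5.85% and 4.16% of all genes. Of the 10, 5 came from the 7 tested genes of the list of further inhibitors, which holds secreted proteins and surface proteins. This list is described here with its values known, and its median difference, 1.32 log2 units, was the highest of the 7 lists. The other medians ran from -0.09 (nuclear components) to 0.73 (receptors). Apcdd1, 1 of the 5, averaged 1 TPM or more only through the old libraries. Kremen1, a surface receptor for Dickkopf proteins, was 1 of the 5, with 30.48, 22.23 and 28.64 TPM in the young, 68.27 and 19.28 TPM in the middle-aged and 51.89, 40.85 and 31 TPM in the old libraries. Sfrp5, a secreted Frizzled-like inhibitor that is named here after its values were seen, had 13.52, 16.92 and 3.08 TPM, then 20.73 and 36.81 TPM, then 42.74, 45.37 and 28 TPM in the same order. Its difference of old minus young was 1.93 log2 units (SE 0.62, limma p = 0.00994, adjusted p = 0.728). The summed level of the 12 genes on that inhibitor list was 53.33, 50.54 and 50.9 TPM in the young, 106.9 and 81.81 TPM in the middle-aged and 136.2, 150.97 and 111.6 TPM in the old libraries.

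Other common targets of canonical signalling lay on both sides of 0. Of 9 tested, 6 differences between old and young were above 0 and 3 below, with a median of 0.13 log2 units, and in 2 all old libraries exceeded all young ones, against 5.85% of all genes. The 2 were Cd44 and Apcdd1, named here after their values were seen. Cd44 had 12.58, 8.01 and 13.09 TPM in the young and 25.25, 13.49 and 38.22 TPM in the old libraries. Apcdd1 was listed at 0 in every young library and at 2.27, 10.68 and 5.41 TPM in the old ones. It averaged 1 TPM or more only through the old libraries, so its place in this count is not read as support. The list of further inhibitors also holds Apcdd1, which is 1 of the 5 genes counted there. Myc, a growth regulator, had 98.57, 158.78 and 127.24 TPM in the young, 193.33 and 337.88 TPM in the middle-aged and 136.26, 118.72 and 162.30 TPM in the old libraries. The cell cycle gene Ccnd1 had 24.79, 41.03 and 34.28 TPM, then 45.97 and 32.04 TPM, then 20.69, 30.76 and 54.07 TPM in the same order. Young and old overlapped for both, and for Bmp4 and Id2. The lower targets Nkd1, Rnf43 and Notum, also named after their values were seen, overlapped as well. Sp5 was at 0 in all 8 libraries and was not tested. The casein kinase Csnk1a1, which primes beta-catenin for Gsk3b, had a mean of 160.64 TPM and overlapped too.

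The single-cell wells show which of these genes were found in individual cells of the young mouse. A gene was counted in a well at 1 TPM or more, and shares are given with exact (Clopper-Pearson) 95% intervals that cover counting error between wells of 1 mouse. Young wells held a median of 1854 genes (7 to 3621), with Myf5 in 51 and Pax7 in 39 of the 64. Old wells held a median of 64 genes (3 to 2950), and 7 of 31 reached 1000 genes against 54 of 64 young ones. No comparison between the ages was therefore made on wells.

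Gsk3b was found in 38 of 64 young wells (59.4%, 46.4 to 71.5%), Tcf7l2 in 24 (37.5%, 25.7 to 50.5%) and Lgr4 in 23 (35.9%, 24.3 to 48.9%). Ctnnb1 was found in 16 wells (25%, 15 to 37.4%), although it was the highest Wnt gene in bulk. Wls was found in 13 wells (20.3%), Lrp6 and Apc in 11 each (17.2%), Dvl3 in 10 (15.6%) and Tcf7l1 in 8 (12.5%). These 9 genes were the ones in at least 10% of young wells. In wells that held it, Ctnnb1 had a median of 56.04 TPM (2.23 to 424.34 TPM) and Gsk3b one of 44.78 TPM (1.03 to 361.02 TPM). A further 17 genes were found in 1 to 6 wells, among them Fzd4, Sfrp4, Znrf3 and Dvl2 in 6 each, Wnt4 in 5, Fzd7 in 2 and Lef1 in 1.

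The remaining 17 Wnt genes were found in 0 of 64 young wells, which allows a share of up to 4.69% each by the count of 3 wells taken as the limit, and 5.6% by the exact interval. They include Axin2, Tcf7 and Wnt9a, and 12 of the 17 were above 0 in the young bulk libraries. Dkk3, at 12.35 ± 10.54 TPM in young bulk (n = 3), was the highest of these 12, and Fzd2, Sfrp1 and Wnt5a were others. Markers of fibroblasts were uneven in the same wells. Pdgfra was in 0 of 64 and Col1a1 in 3, while Dcn was in 22 and Serping1 in 52. Schwann cell genes were rare, with Sox10, Prx and Ncmap in 1 well each and Mbp in 0. Of the 10 highest Wnt genes by mean level, 8 were shared between young bulk and young wells, and the exceptions of bulk were Fzd4 and Fzd7.

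**Figure D5:**
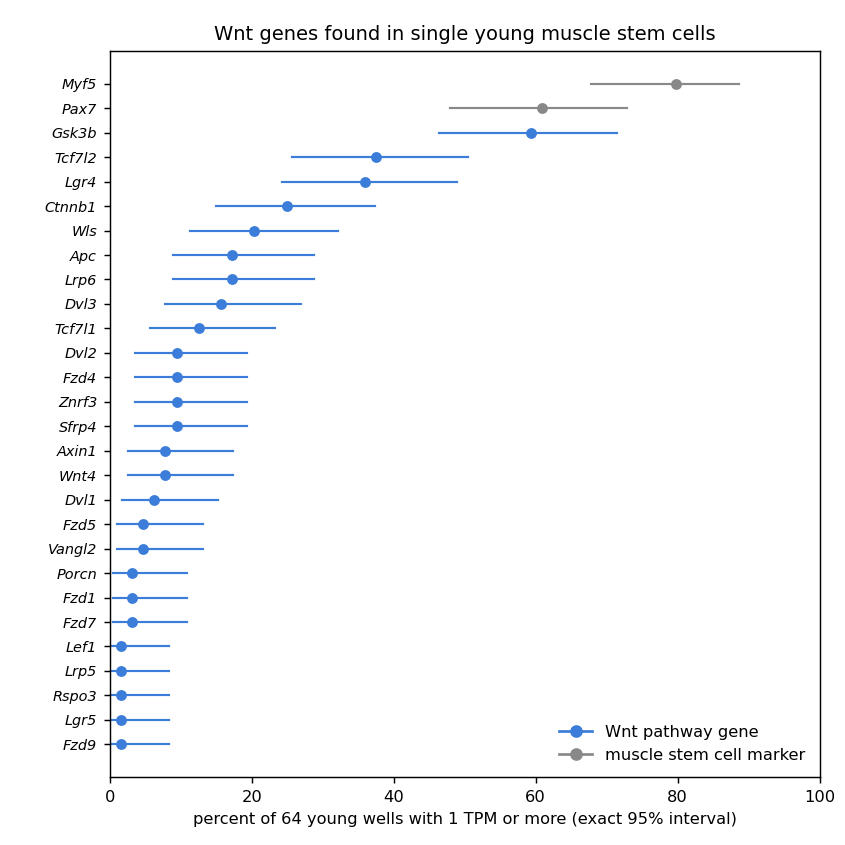
Percent of the 64 young wells in which each Wnt pathway gene reached 1 TPM, with exact 95% intervals, for the 26 genes found in at least 1 well, beside the muscle stem cell markers Myf5 and Pax7 in grey. Gsk3b, at 59.4%, lies next to Pax7, and most receptors lie under 10%.

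Joint detection of a complete receptor was uncommon. At least 1 Frizzled was found in 14 young wells (21.9%, 12.5 to 34%), Lrp5 or Lrp6 in 11 (17.2%, 8.9 to 28.7%) and both in 5 (7.8%, 2.6 to 17.3%). A TCF/LEF factor was found in 28 wells (43.8%, 31.4 to 56.7%), and together with Ctnnb1 in 10 (15.6%, 7.8 to 26.9%). A ligand was found in 5 wells, in each case Wnt4. The median young well held 3 of the 43 genes and the highest 10, and 11 wells held none. Wells capture part of each cell's RNA, so a missing gene is not read as absent from the cell. In the 7 old wells with at least 1000 genes, Ctnnb1 and Tcf7l2 were found in 3 each, Wls and Gsk3b in 2 each, and Apc, Znrf3, Lgr4, Vangl2 and Sfrp4 in 1 each.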

How the data were processed

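Bulk RNA and single-cell wells of mouse muscle stem cells were profiled. Both deposited tables hold TPM, per the labels, made by the authors after alignment with STAR to mm10 (per the submitters' processing notes). The sources used here do not give the quantifier, annotation or strandedness. TPM are shares of a library, carry no read depth, and a higher share of one gene lowers the others. Reads were 75 bases long, per the labels' protocols. Precision rests on 2 or 3 libraries per age.

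All 8 bulk libraries entered 1 limma 3.58.1 fit (R 4.3.3) of log2(TPM + 1), a mean per age, a variance trend and two-sided tests, for the 22492 genes that averaged 1 TPM or more. P-values were adjusted by Benjamini-Hochberg over all genes, at 0.05. No other tool was run. The fit was checked on simulated data with 600 changed genes per fold size, split over repeated runs and drawn from the better expressed of all genes. Libraries with the same replicate number did not deviate together (r = -0.012 to 0.005). Groups do not overlap where every library of one age exceeds every library of the other. Wells were given as shares (Python 3.11.15, scipy 1.17.1, exact 95% intervals; upper limit 3 wells where 0) with no test between ages, 1 mouse each. Gene positions are from GENCODE M21 (mm10).

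The Wnt genes, lists and rules were chosen with earlier results of these data known. Values per library are given for Wnt genes that averaged 5 TPM or more, or averaged 1 TPM or more with groups that do not overlap. Lgr5 and Vangl2 meet neither condition and are given as well, Lgr5 with its difference of old minus young. Folds and tests are given where unadjusted p was under 0.05 or groups did not overlap, and for Axin2, Lef1, Ctnnb1 and Fzd7. Of other pathway genes, those averaging 20 TPM or more could be named, at most 12 from the highest down. Alternatives covered the pseudocount, filters, trend, libraries fitted, mitochondrial genes, quantile normalization, a replicate block and leaving out each library.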

Additional observations from a re-analysis of the deposited data

How the results depend on the processing

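No Wnt gene passed the adjusted threshold in any comparison under any of the 17 alternative settings, the lowest adjusted p being 0.141. Of 467 recomputed differences of Wnt genes, 465 kept their sign, and Ctnnb1 in old against young (-0.45 to 0.18 with 1 library left out) turned to 0.18 without young library 3 and to 0.01 without old library 3. The number of Wnt genes at unadjusted p under 0.05 in old against young was 1 for genes averaging 5 TPM or more and 1 to 8 when 1 library was left out. Leaving out 1 library gave 8 to 14 genes higher and 0 to 2 lower without overlap, which fewer libraries make easier. For middle-aged against young, those numbers were 3 to 5, 7 to 13 and 0 to 6, and for old against middle-aged 1 to 5, 9 to 18 and 2 to 9. In the latter, the number at unadjusted p was 1 with a pseudocount of 0.1, with no filter and for genes averaging 5 TPM or more, and 4 with quantile normalization. The shares of all genes under the same settings are not given here. The counts with 1 library left out are therefore not read as a result about the Wnt genes.

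Over all genes, middle-aged against young gave 1 call, and 7 with a pseudocount of 0.1, 0 with 5, 0 with no filter, 2 for genes averaging 5 TPM or more, 12 with no trend, 0 with only the 2 groups, 0 without mitochondrially encoded genes and 5 with quantile normalization. With the replicate number as a block it was 0, and the block changed no call for a Wnt gene. Without 1 library it was 0 to 859, with 600 without middle-aged library 1 and 859 without library 2, where the lone middle-aged sample is assumed to vary like the other groups. For old against middle-aged the calls were 6 with a pseudocount of 0.1, 1 with quantile normalization, and 0 to 792 without 1 library (580 and 792 without middle-aged library 1 or 2). Quantile normalization moved the median of all genes in middle-aged against young from 0.18 to 0, and 17 of 35 Wnt genes were then higher with a median of -0.06. Counting wells above 0 TPM put Lrp5 or Lrp6 in 29.7% of young wells. No depth, count or detection limit can be read from bulk TPM.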
